A study of Mus musculus with 6 samples.

Results

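The antiviral interferon effectors examined here are 10 genes, namely *Ifit1*, *Ifit2*, *Ifit3*, *Oasl1*, *Oasl2*, *Oas1a*, *Rsad2*, *Isg15*, *Bst2* and *Usp18*. They form a list of names, found by matching the Ensembl identifiers in the deposited files to gene symbols. The rule uses no expression value, but the list was proposed with earlier results of these data known. All 10 were found among the 23231 genes listed in at least 1 library, and all 10 passed the low-count filter. RNA-Seq of C2C12 cells, a mouse myoblast line that forms myotubes in low serum, was compared between cells with dCas9-KRAB and cells with dCas9-KRAB-En5. dCas9-KRAB is a Cas9 that cannot cut DNA, fused to the KRAB repressor domain. In dCas9-KRAB-En5 cells it was brought by sgRNAs to Myog-En5, an enhancer of the myogenic factor gene *Myog*, whereas dCas9-KRAB cells carried the repressor without these sgRNAs. Both groups were C2C12 cells that had received lentivirus at a multiplicity of infection of 100, were selected with 2 μg/ml puromycin and were collected on day 5 in medium with 2% horse serum. There were 3 libraries of polyA RNA in each group.

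Type I interferons bind a receptor on the cell surface, and the kinases JAK1 and TYK2 bound to it phosphorylate transcription factors such as STAT2. A complex with IRF9 then binds the interferon-stimulated response element, a short repeat in the promoters of the induced genes. The IFIT proteins bind viral or foreign RNA, the OAS proteins sense double-stranded RNA, ISG15 is a ubiquitin-like protein that is joined to other proteins and USP18 takes it off again. BST2 (tetherin) holds budding enveloped viruses at the cell surface, and viperin, the product of *Rsad2*, makes a chain-terminating nucleotide. Myoblasts and macrophages are both able to respond to interferon with these genes.

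The deposited counts summed to between 31831093 and 73988425 per library. The level given below is the TPM, the deposited counts scaled for gene length to a fixed total in each library. Where 3 values of a group stand in a row, they follow the replicate numbers. Counts were compared by the quasi-likelihood test of edgeR for the 14378 genes that passed its filter, with p-values adjusted by the Benjamini-Hochberg method. A gene was called lower or higher if its adjusted p did not exceed 0.01 and its log2 fold change, given with its standard error (SE), was 1 or more in size. By this rule 671 genes (4.67%) were called lower and 219 (1.52%) higher in dCas9-KRAB-En5 cells. The labels do not say whether the libraries of a group came from separate cultures, so the p-values measure the spread between these libraries, which may be technical. dCas9-KRAB-En5 replicate 3 stood apart, with 13991 genes listed against 17084 to 19395 in the other libraries and with 20.6% of its counts in ribosomal protein genes against 9.12% to 16.7%. *Myog* itself had 1136 ± 80.9 TPM in dCas9-KRAB and 0.126 ± 0.219 TPM in dCas9-KRAB-En5 libraries (SD, n = 3 each). The labels give the cells as myoblasts, yet 14 of 15 macrophage marker genes were listed in these libraries, with a summed TPM of 4152 to 4761 in dCas9-KRAB and 5569 to 8834 in dCas9-KRAB-En5 libraries.

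Promoter sequence is shown first for the members whose window held the core of the interferon-stimulated response element, since this is the sequence the pathway is known to read. The windows came from RefSeq on GRCm38.p6 and ran from 250 bases before to 50 bases after each gene's start. The core was searched as GAAA, 2 bases of any kind and GAAA again, on both strands, with overlapping copies counted, and was present in 1131 of 32851 windows (3.44%). It was present in 6 of the 9 members that had a window, and no window was found for *Usp18*. Each stretch is written on the strand of its gene, 5′ to 3′, with 15 bases on either side, and capitals mark the core.
Isg15, chr4:156200860-156200911, minus strand, 3 overlapping copies: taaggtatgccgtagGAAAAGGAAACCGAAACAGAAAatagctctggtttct
Ifit1, chr19:34640770-34640828, plus strand, 2 copies: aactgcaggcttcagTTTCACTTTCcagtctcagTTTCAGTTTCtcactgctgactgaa
Ifit3, chr19:34583358-34583431, plus strand, 2 copies: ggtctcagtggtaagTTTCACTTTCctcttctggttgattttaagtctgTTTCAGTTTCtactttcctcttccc
Oas1a, chr5:120907515-120907560, minus strand, 2 overlapping copies: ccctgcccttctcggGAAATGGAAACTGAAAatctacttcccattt
Bst2, chr8:71537572-71537617, minus strand, 2 overlapping copies: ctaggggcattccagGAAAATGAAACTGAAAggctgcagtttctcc
Rsad2, chr12:26456548-26456587, minus strand, 1 copy: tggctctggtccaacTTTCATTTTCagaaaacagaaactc

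Counted from the start of the gene, with negative numbers before it, the copies lay from -78 to -57 in *Isg15*, -104 to -76 in *Ifit1*, -156 to -113 in *Ifit3*, -20 to -5 in *Oas1a*, -130 to -115 in *Bst2* and -120 to -111 in *Rsad2*. In *Ifit1*, *Ifit3* and *Rsad2* the core read on the opposite strand, so it appears as its reverse complement. The stretch of *Ifit3* was present letter for letter at *Ifit3b*, and that of *Oas1a* at *Oas1g*. The windows of *Ifit2*, *Oasl1* and *Oasl2* did not hold these letters. The core of the gamma-activated site, searched as TTCNNNGAA, was present in 2726 windows (8.30%) and in those of *Ifit2*, *Oas1a* and *Bst2*. Among 23 other interferon effectors with a window, 4 held the first core and 6 the second. A match is a description of the letters and was not tested as a binding site.

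Most of the 10 members were called lower in dCas9-KRAB-En5 cells, with estimates that differed widely from gene to gene. The estimated log2 fold change was negative for 10 of 10 members, with a median of -3.31, whereas the median over all genes tested was 0.08 and 47.7% of them were negative. Of the members, 6 were called lower (*Ifit1*, *Ifit2*, *Ifit3*, *Oasl2*, *Isg15* and *Usp18*), 0 were called higher and 4 were not called (*Oasl1*, *Oas1a*, *Rsad2* and *Bst2*), beside 4.67% called lower among all genes. In 8 of the 10 members each dCas9-KRAB-En5 library lay under the lowest dCas9-KRAB library in TPM, beside 2836 of all genes tested (19.7%). For each of these 8 the exact permutation test, two-sided, gave p = 0.1, which is the smallest p that 3 against 3 allow. *Oasl1* and *Rsad2* overlapped between the groups. With the replicate number as a block in the same test, which called 976 genes (6.79%) lower and 567 (3.94%) higher, *Bst2* and *Oas1a* were called too, so that 8 members were called lower and 0 higher. With dCas9-KRAB-En5 replicate 3 left out, the same 8 members were called lower, in a fit that called 2134 of 15265 genes (14.0%) lower. Without dCas9-KRAB replicate 2, where the fewest members were called, 3 were (*Ifit3*, *Oasl2* and *Isg15*), beside 305 of 15083 genes (2.02%). *Ifit3* and *Oasl2* were called with each of the 6 libraries left out in turn. These are bulk samples, in which fewer cells of a type and less RNA per cell cannot be told apart.

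**Figure D1:**
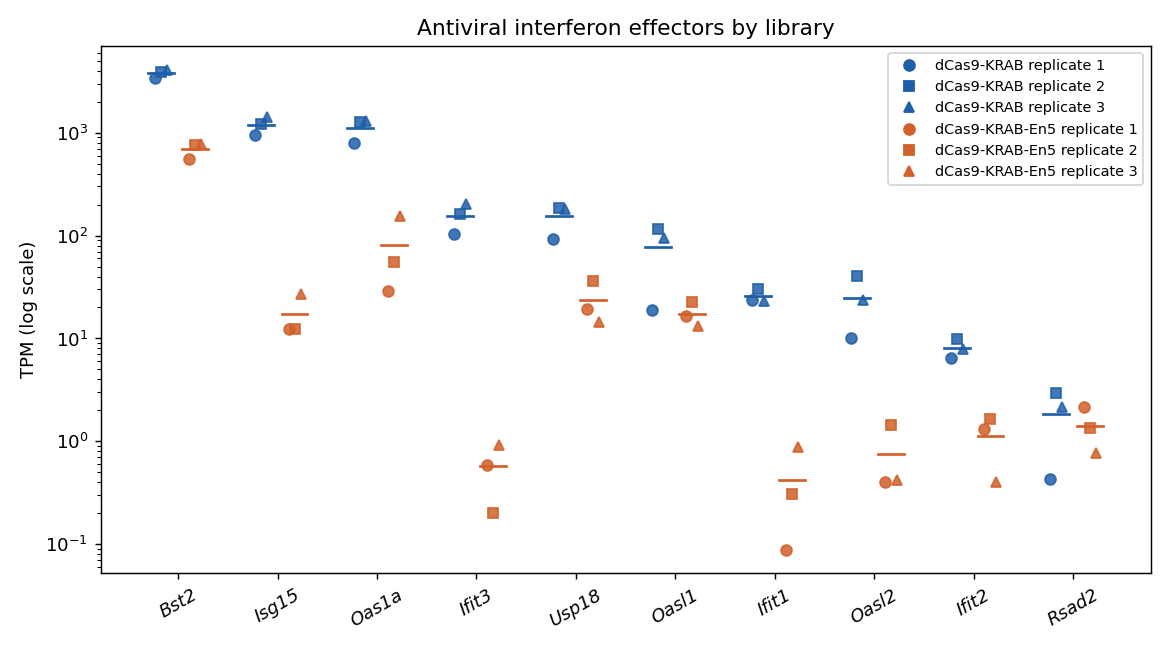
TPM of each of the 10 members in the 6 libraries, on a log axis, with a point for each library and a bar for the mean of each group. The dCas9-KRAB-En5 points lie below every dCas9-KRAB point in 8 genes and overlap them in Oasl1 and Rsad2, and Bst2 is the member at the highest level in each library.

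The summed TPM of the 10 members was 5398, 6918 and 7348 in dCas9-KRAB and 640.1, 895 and 992 in dCas9-KRAB-En5 libraries. The lowest dCas9-KRAB library was thus well above the highest dCas9-KRAB-En5 library. The members made up 0.540% to 0.735% of all TPM in dCas9-KRAB and 0.0640% to 0.0992% in dCas9-KRAB-En5 libraries. *Bst2* alone held 55.5% to 63.1% of the members' TPM in dCas9-KRAB and 78.4% to 87.2% in dCas9-KRAB-En5 libraries. dCas9-KRAB replicate 1 was the lowest of its group for 9 of the 10 members. dCas9-KRAB-En5 replicate 3 was the highest of its group for 5 members and the lowest for 4.

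The Ifit genes encode proteins of tetratricopeptide repeats that bind RNA, and they lie together on chromosome 19 of GRCm38. *Ifit1* (ENSMUSG00000034459, chr19:34640871-34650009, plus strand, 2 exons), whose product binds RNA with an unmethylated cap, had a TPM of 23.8, 30.5 and 23.1 in dCas9-KRAB and 0.0889, 0.311 and 0.872 in dCas9-KRAB-En5 libraries. The 3 dCas9-KRAB libraries were close to each other, and the 3 dCas9-KRAB-En5 libraries held 5, 14 and 53 counts. The means were 25.8 ± 4.09 and 0.424 ± 0.404 (SD, n = 3 each), and *Ifit1* was 48.5-fold lower, with a log2 fold change of -5.60 (SE 0.95, adjusted p = 0.00287 in edgeR). The call was lost without dCas9-KRAB replicate 1 (adjusted p = 0.0358 in edgeR) and without dCas9-KRAB replicate 2 (adjusted p = 0.0111 in edgeR).

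*Ifit3* (ENSMUSG00000074896, chr19:34583531-34588731, plus strand, 2 exons) had a TPM of 104, 163 and 201 in dCas9-KRAB and 0.595, 0.203 and 0.926 in dCas9-KRAB-En5 libraries. It thus went from the fourth to the ninth place among the members by mean TPM, and its dCas9-KRAB-En5 libraries held 22, 6 and 37 counts against 4915 to 15702 in dCas9-KRAB. The means were 156 ± 49.0 and 0.575 ± 0.362 (SD, n = 3 each), and the log2 fold change of -7.90, a 238-fold lower level, was the lowest of the 10 members (SE 0.90, adjusted p = 0.000217 in edgeR). Of the 50-base words of its exons, 51.2% also occurred in *Ifit3b*, so that the counts of these neighbouring genes may have been split between them. The ratio of *Ifit3* to *Ifit3b* in TPM was 5.03 to 6.30 in dCas9-KRAB libraries. The dCas9-KRAB-En5 libraries held 2, 0 and 25 counts of *Ifit3b*. There the ratio was 12.6 in replicate 1, undefined in replicate 2 and 1.70 in replicate 3.

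*Ifit2* (ENSMUSG00000045932, chr19:34550694-34576419, plus strand, 3 exons) had a TPM of 6.44, 9.81 and 7.90 in dCas9-KRAB and 1.31, 1.64 and 0.401 in dCas9-KRAB-En5 libraries. The groups were apart but far closer than for *Ifit1* and *Ifit3*, and here dCas9-KRAB-En5 replicate 3 was the lowest library, not the highest. The means were 8.05 ± 1.69 and 1.12 ± 0.641 (SD, n = 3 each), and *Ifit2* was 8.98-fold lower, with a log2 fold change of -3.17 (SE 0.49, adjusted p = 0.00162 in edgeR). The call was lost without dCas9-KRAB replicate 2 (adjusted p = 0.0108 in edgeR) and with limma on log2(TPM + 1), where the adjusted p was 0.0322, or on log2(TPM + 0.1), where it was 0.0269.

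The order of the Ifit genes in each dCas9-KRAB library, *Ifit3* over *Ifit1* over *Ifit2* in TPM, was kept in dCas9-KRAB-En5 replicate 3. It was not kept in dCas9-KRAB-En5 replicates 1 and 2, where *Ifit1* held 5 and 14 counts and *Ifit3* 22 and 6. *Ifit3* was 16.1 to 25.4 times *Ifit2* in TPM in dCas9-KRAB libraries, and 0.454, 0.124 and 2.31 times *Ifit2* in dCas9-KRAB-En5 libraries. *Ifit1* was 2.92 to 3.69 times *Ifit2* in dCas9-KRAB libraries, and 0.0678, 0.190 and 2.18 times in dCas9-KRAB-En5 libraries. Both ratios were lower in every dCas9-KRAB-En5 library than in any dCas9-KRAB library, and in both dCas9-KRAB-En5 replicate 3 was nearest to the dCas9-KRAB libraries. Of the other Ifit genes, *Ifit3b* had a TPM of 16.5, 32.4 and 33.5 in dCas9-KRAB and 0.0472, 0 and 0.546 in dCas9-KRAB-En5 libraries, and was called lower with a log2 fold change of -6.67 (SE 1.23, adjusted p = 0.00478 in edgeR). That call was lost without dCas9-KRAB replicate 1 and without dCas9-KRAB replicate 2, with an adjusted p of at most 0.0416 in edgeR. *Ifit1bl2* had 45, 28 and 21 counts in dCas9-KRAB and none in the dCas9-KRAB-En5 libraries, which makes it at least 7.15-fold lower against a floor of 3 counts in each library. It was not called (adjusted p = 0.0162 in edgeR). *Ifit1bl1* had at most 32 counts in a library and did not pass the filter.

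The genes next to the Ifit cluster were looked at after the values of the members had been seen. Within 100000 bases on either side of the stretch from *Ifit2* to *Ifit1*, *Ch25h* had a log2 fold change of -4.35 (adjusted p = 0.0229 in edgeR), *Lipa* of 1.01 (adjusted p = 0.139 in edgeR) and *Slc16a12* of 2.49 (adjusted p = 0.0192 in edgeR). None of these 3 was called.

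**Figure D2:**
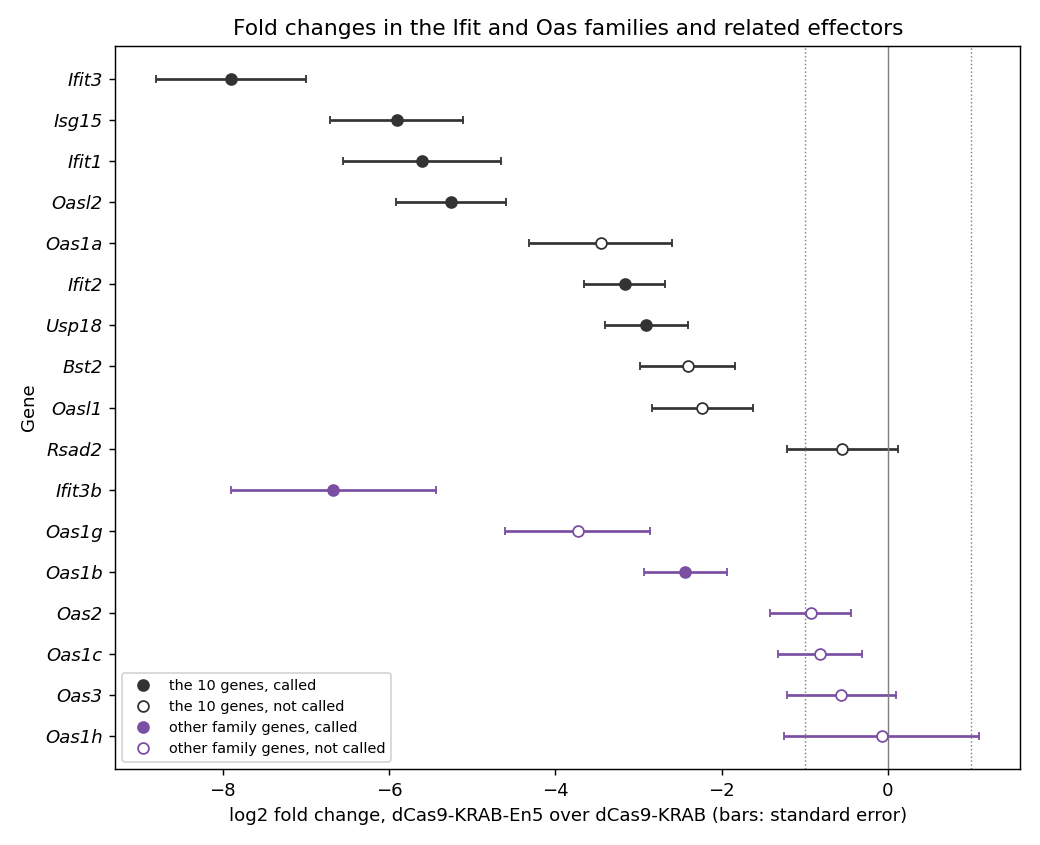
Log2 fold change in dCas9-KRAB-En5 over dCas9-KRAB cells for the 10 members and the tested genes of the same families, with bars of 1 standard error from edgeR. Ifit3 lies lowest at -7.90 and Rsad2 nearest to 0 among the members at -0.55, and Ifit1bl2, which had no count in dCas9-KRAB-En5 libraries, is not drawn.

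The Oas genes encode enzymes that, on meeting double-stranded RNA, make the messenger 2-5A, which starts the breakdown of RNA. *Oas1a* (ENSMUSG00000052776, chr5:120896256-120907521, minus strand, 7 exons), an active synthetase, had a TPM of 795, 1271 and 1302 in dCas9-KRAB and 28.8, 55.9 and 156 in dCas9-KRAB-En5 libraries. Each dCas9-KRAB-En5 library lay under the lowest dCas9-KRAB library, but dCas9-KRAB-En5 replicate 3 stood well above the other replicates of its group. The means were 1123 ± 285 and 80.2 ± 67.0 (SD, n = 3 each), and the log2 fold change of -3.45 was not called (SE 0.86, adjusted p = 0.0196 in edgeR). It was called with the replicate number as a block (log2 fold change -4.31, adjusted p = 0.00028 in edgeR) and without dCas9-KRAB-En5 replicate 3 (log2 fold change -5.38, adjusted p = 3.84e-05 in edgeR).

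Of the 50-base words of *Oas1a*, 57.6% also occurred in *Oas1g*, its near copy next to it on chromosome 5, so that their counts are uncertain with respect to each other. *Oas1g* had a TPM of 282, 561 and 588 in dCas9-KRAB and 11.1, 18.8 and 54.4 in dCas9-KRAB-En5 libraries, the same order of libraries as *Oas1a*. Its log2 fold change of -3.73 was not called (SE 0.87, adjusted p = 0.0143 in edgeR), and that of -4.51 with the replicate block was (adjusted p = 0.000158 in edgeR). The ratio of *Oas1a* to *Oas1g* in TPM was 2.22 to 2.82 in dCas9-KRAB and 2.60 to 2.97 in dCas9-KRAB-En5 libraries, and these ranges overlapped.

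The Oasl genes encode OAS-like proteins with ubiquitin-like domains. *Oasl2* (ENSMUSG00000029561, chr5:114896936-114912234, plus strand, 6 exons), which keeps synthetase activity in the mouse, had a TPM of 10.1, 40.6 and 23.8 in dCas9-KRAB and 0.400, 1.43 and 0.425 in dCas9-KRAB-En5 libraries. The lowest dCas9-KRAB library, replicate 1, was still above every dCas9-KRAB-En5 library. The means were 24.8 ± 15.3 and 0.753 ± 0.590 (SD, n = 3 each), and *Oasl2* was 38.2-fold lower, with a log2 fold change of -5.25 (SE 0.66, adjusted p = 0.000422 in edgeR).

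*Oasl1* (ENSMUSG00000041827, chr5:114923240-114937915, plus strand, 7 exons), which lies next to *Oasl2* and is known to limit the translation of *Irf7*, had a TPM of 18.8, 116 and 95.4 in dCas9-KRAB and 16.6, 22.7 and 13.2 in dCas9-KRAB-En5 libraries. dCas9-KRAB replicate 1 fell inside the range of the dCas9-KRAB-En5 libraries, whereas the other two dCas9-KRAB replicates were far above it. The means were 76.6 ± 51.1 and 17.5 ± 4.81 (SD, n = 3 each; exact permutation test, two-sided, p = 0.2), and the log2 fold change of -2.23 was not called (SE 0.61, adjusted p = 0.0283 in edgeR). *Oasl1* was 1.86 to 4.02 times *Oasl2* in TPM in dCas9-KRAB and 15.8 to 41.5 times in dCas9-KRAB-En5 libraries, which did not overlap. The start of *Oasl1* overlaps *Gm13822* on the opposite strand, and whether reads were counted by strand is not given in the sources used here, so reads of this overlap cannot be assigned to either gene.

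Among the 12 other genes of the Ifit and Oas families, 11 were listed, 8 were tested, 2 were called lower (*Ifit3b* and *Oas1b*) and 0 higher, with a median log2 fold change of -1.68. With the replicate block, 3 were called lower (*Oas1g* in addition), beside 6.79% of all genes. *Ifit3b* shares 44.5% of its 50-base words with *Ifit3*, and *Oas1g* 45.2% with *Oas1a*, so their counts may not be separate from those of the members. *Oas1b*, known for its part in resistance of mice to flaviviruses, had a TPM of 9.79, 21.7 and 19.6 in dCas9-KRAB and 3.22, 4.65 and 2.50 in dCas9-KRAB-En5 libraries, and a log2 fold change of -2.44 (SE 0.50, adjusted p = 0.00797 in edgeR). Its groups did not overlap, but the call held with dCas9-KRAB-En5 replicate 3 left out only, and leaving out any other library ended it, with an adjusted p of at most 0.0444 in edgeR. *Oas2* and *Oas3*, the larger synthetases with several catalytic-type units, lie within the same cluster on chromosome 5 and had overlapping groups. The TPM of *Oas3* was 7.92, 57.2 and 31.8 in dCas9-KRAB and 18.6, 57.4 and 7.96 in dCas9-KRAB-En5 libraries, and its log2 fold change was -0.56 (SE 0.65, adjusted p = 0.586 in edgeR). The TPM of *Oas2* ranged from 8.56 to 21.5 in dCas9-KRAB and from 2.69 to 17.4 in dCas9-KRAB-En5 libraries, with a log2 fold change of -0.93 (SE 0.49, adjusted p = 0.211 in edgeR). *Oas2* overlaps *Gm43068* on the opposite strand.

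The ratio of *Oas1a* to *Oas3* in TPM was 100.3, 22.2 and 40.9 in dCas9-KRAB and 1.55, 0.973 and 19.6 in dCas9-KRAB-En5 libraries. The ratio was thus lower in each dCas9-KRAB-En5 library than in each dCas9-KRAB library, although replicate 3 of dCas9-KRAB-En5 came close to replicate 2 of dCas9-KRAB. Of the rest of the family, *Oas1e* was not listed, *Oas1d* and *Oas1f* did not pass the filter, and *Oas1c* and *Oas1h* were not called (log2 fold changes -0.82 and -0.08, adjusted p = 0.282 and 0.973 in edgeR). *Oas1d* had 0, 0 and 4 counts in dCas9-KRAB and 8, 4 and 12 in dCas9-KRAB-En5 libraries. In TPM each of its dCas9-KRAB-En5 libraries lay over the highest dCas9-KRAB library.

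*Isg15* (ENSMUSG00000035692, chr4:156199424-156200818, minus strand, 2 exons) had a TPM of 942, 1216 and 1434 in dCas9-KRAB and 12.4, 12.2 and 27.0 in dCas9-KRAB-En5 libraries. The dCas9-KRAB libraries were close together, and no dCas9-KRAB-En5 library came near them. The means were 1198 ± 247 and 17.2 ± 8.49 (SD, n = 3 each), and *Isg15* was 60.0-fold lower, with a log2 fold change of -5.91 (SE 0.80, adjusted p = 0.000668 in edgeR). The call was lost without dCas9-KRAB replicate 1 (adjusted p = 0.0142 in edgeR).

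*Usp18* (ENSMUSG00000030107, chr6:121245906-121270917, plus strand, 11 exons), the protease that removes ISG15 and also dampens signalling at the interferon receptor, had a TPM of 92.0, 187 and 182 in dCas9-KRAB and 19.4, 36.3 and 14.6 in dCas9-KRAB-En5 libraries. The groups did not overlap, with dCas9-KRAB replicate 1 again the lowest of its group. The means were 153 ± 53.3 and 23.4 ± 11.4 (SD, n = 3 each), and *Usp18* was called lower with a log2 fold change of -2.91 (SE 0.50, adjusted p = 0.00313 in edgeR). The call was lost without dCas9-KRAB replicate 2, without dCas9-KRAB replicate 3 and without dCas9-KRAB-En5 replicate 1 (adjusted p = 0.0179, 0.0194 and 0.0129 in edgeR). *Usp18* overlaps *Gm44148* on the opposite strand.

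The level of *Isg15* relative to its protease differed between the groups. *Isg15* was 10.2, 6.52 and 7.89 times *Usp18* in TPM in dCas9-KRAB and 0.640, 0.338 and 1.85 times in dCas9-KRAB-En5 libraries, with no overlap. The list of 5 genes of ISG15 conjugation includes the members *Isg15* and *Usp18*, so it is not separate from the members. All 5 had a negative log2 fold change, and the median of -2.91 was the value of *Usp18* itself. Of the 5, 3 were called lower (beside 4.67% of all genes) and 0 higher, *Isg15* and *Usp18* being among those called. With the replicate block 3 were called lower, beside 6.79% of all genes. The only gene called that is not a member was *Ube2l6*, which encodes the conjugating enzyme. It had a TPM of 277, 455 and 437 in dCas9-KRAB and 41.1, 58.3 and 53.3 in dCas9-KRAB-En5 libraries (log2 fold change -2.93, SE 0.55, adjusted p = 0.00534 in edgeR). Its call was lost when any library but dCas9-KRAB-En5 replicate 3 was left out, with an adjusted p of at most 0.0295 in edgeR. *Uba7*, the activating enzyme, had a log2 fold change of -2.04 (adjusted p = 0.0400 in edgeR) and *Herc6*, the mouse ligase, of -2.40 (adjusted p = 0.0382 in edgeR), and neither was called. The ratio of *Isg15* to *Usp18* is among those drawn in the plot of ratios between effectors.

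**Figure D3:**
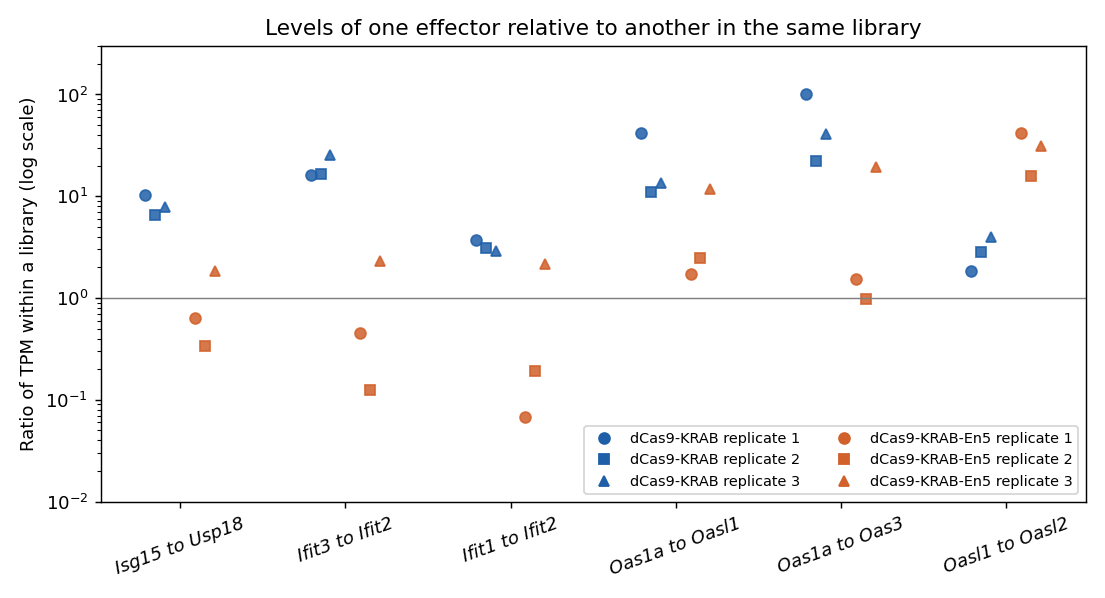
Ratio in TPM between pairs of interferon effectors within each library, on a log axis, with 3 dCas9-KRAB and 3 dCas9-KRAB-En5 points for each pair. The ratio of Isg15 to Usp18 runs from 6.52 to 10.2 in dCas9-KRAB and from 0.338 to 1.85 in dCas9-KRAB-En5 libraries, and the ratio of Oasl1 to Oasl2 runs the other way, from 1.86 to 4.02 and from 15.8 to 41.5.

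*Bst2* (ENSMUSG00000046718, chr8:71534255-71537456, minus strand, 5 exons) had a TPM of 3405, 3882 and 4076 in dCas9-KRAB and 558, 763 and 778 in dCas9-KRAB-En5 libraries. It was first among the members in every library, and its groups did not overlap. The means were 3788 ± 345 and 699.7 ± 123 (SD, n = 3 each), and the 5.31-fold lower level, a log2 fold change of -2.41, was not called (SE 0.57, adjusted p = 0.0150 in edgeR). It was called with the replicate block (log2 fold change -2.59, adjusted p = 0.00146 in edgeR) and without dCas9-KRAB-En5 replicate 3 (log2 fold change -3.16, adjusted p = 0.000158 in edgeR). In DESeq2 and in limma on TPM *Bst2* was called as well.

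*Rsad2* (ENSMUSG00000020641, chr12:26442746-26456452, minus strand, 6 exons) had a TPM of 0.434, 2.93 and 2.17 in dCas9-KRAB and 2.14, 1.35 and 0.776 in dCas9-KRAB-En5 libraries. It was the member at the lowest level in dCas9-KRAB cells, and the lowest of the 6 libraries was dCas9-KRAB replicate 1. The means were 1.85 ± 1.28 and 1.42 ± 0.688 (SD, n = 3 each; exact permutation test, two-sided, p = 0.7). The log2 fold change of -0.55 was not called (SE 0.67, adjusted p = 0.606 in edgeR), and it was not called in any of the 10 other settings or with any 1 library left out, where it ran from -1.06 to -0.12. *Cmpk2*, its neighbour on chromosome 12 and its partner in nucleotide supply, had overlapping groups as well (log2 fold change -3.09, adjusted p = 0.0692 in edgeR).

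By mean TPM the members ran in the order *Bst2*, *Isg15*, *Oas1a*, *Ifit3*, *Usp18*, *Oasl1*, *Ifit1*, *Oasl2*, *Ifit2* and *Rsad2* in dCas9-KRAB cells. In dCas9-KRAB-En5 cells the order was *Bst2*, *Oas1a*, *Usp18*, *Oasl1*, *Isg15*, *Rsad2*, *Ifit2*, *Oasl2*, *Ifit3* and *Ifit1*. Neighbours in the order that did not overlap in dCas9-KRAB libraries were *Bst2* and *Isg15*, *Oas1a* and *Ifit3*, *Oasl2* and *Ifit2*, and *Ifit2* and *Rsad2*, and the other neighbours overlapped. In dCas9-KRAB-En5 libraries the only neighbours that did not overlap were *Bst2* and *Oas1a*, and *Isg15* and *Rsad2*. *Rsad2*, last of the members in dCas9-KRAB cells, thus stood above *Ifit1*, *Ifit2*, *Ifit3* and *Oasl2* by mean TPM in dCas9-KRAB-En5 cells. Its range over the dCas9-KRAB-En5 libraries overlapped that of each of these genes.

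Genes of the pathway around the members were described from lists by role. Of 10 ligand genes, 8 were not listed in any library. *Ifnb1*, the gene of interferon beta, had 5, 2 and 13 counts in dCas9-KRAB and 0 in each dCas9-KRAB-En5 library, and *Ifng* had 4 counts in dCas9-KRAB replicate 1 only, so neither was tested and no fold is given. Of the 7 receptor and kinase genes, all tested, 0 were called in edgeR, 0 had a negative log2 fold change, all 7 overlapped between the groups and the median was 0.44. At an unadjusted p under 0.05 in edgeR 3 were higher and 0 lower, and DESeq2 called 1 higher (*Jak2*). *Ifnar1*, a chain of the type I receptor, had a log2 fold change of 1.18 (adjusted p = 0.0847 in edgeR), and *Jak2* of 2.62 (adjusted p = 0.0350 in edgeR).

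Of 7 transcription factors of the pathway, 2 were called lower (beside 4.67% of all genes) and 0 higher, with a median log2 fold change of -1.16. With the replicate block the same numbers were called, beside 6.79% of all genes called lower. *Irf7*, which drives later interferon production, had a TPM of 232, 630 and 589 in dCas9-KRAB and 44.4, 93.6 and 57.3 in dCas9-KRAB-En5 libraries. Its groups did not overlap and its log2 fold change was -2.96 (SE 0.59, adjusted p = 0.00714 in edgeR). *Irf9*, the DNA-binding part of the complex with STAT2, had a TPM of 40.2, 43.9 and 45.5 in dCas9-KRAB and 11.1, 14.9 and 7.49 in dCas9-KRAB-En5 libraries, and a log2 fold change of -2.13 (SE 0.43, adjusted p = 0.00731 in edgeR). Both calls were lost when any library but dCas9-KRAB-En5 replicate 3 was left out, with an adjusted p of at most 0.0387 for *Irf7* and 0.0497 for *Irf9* in edgeR. *Stat2* had a log2 fold change of -1.06 and was not called (adjusted p = 0.211 in edgeR).

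Of 12 sensors and adaptors of foreign nucleic acid, 1 was called lower (beside 4.67% of all genes) and 0 higher, with a median of -0.50. At an unadjusted p under 0.05 in edgeR 4 were lower and 2 higher. DESeq2 called 2 lower and 1 higher, beside 1423 lower and 967 higher of 23231 genes. The gene called lower was *Zbp1*, a sensor of Z-form nucleic acid, with a TPM of 77.5, 116 and 106 in dCas9-KRAB and 3.28, 3.19 and 3.75 in dCas9-KRAB-En5 libraries (log2 fold change -4.84, SE 0.59, adjusted p = 0.000338 in edgeR), and it was called with any 1 library left out. With the replicate block, *Dhx58*, the gene of LGP2, was also called lower (log2 fold change -1.98, adjusted p = 0.00658 in edgeR) and *Aim2*, a sensor of cytosolic DNA, was called higher (log2 fold change 2.12, adjusted p = 0.00565 in edgeR). Over all genes the block called 6.79% lower and 3.94% higher.

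Of 30 other interferon-induced effectors, all tested, 8 were called lower (beside 4.67% of all genes) and 0 were called higher. A negative log2 fold change was found for 28, and the median was -1.29. In 13 of the 30 each dCas9-KRAB-En5 library lay under the lowest dCas9-KRAB library, beside 19.7% of all genes tested. Those called were *Mx1*, *Mx2*, *Ifi44*, *Ifi44l*, *Xaf1*, *Parp12*, *Rtp4* and *Phf11d*. With the replicate block *Ifi35* and *Lgals3bp* were called too, which made 10, beside 6.79% of all genes. With 1 library left out, 4 to 12 were called lower. There were 4 without dCas9-KRAB replicate 1 (beside 1.43% of all genes) or without dCas9-KRAB replicate 2 (beside 2.02%). Without dCas9-KRAB-En5 replicate 3 there were 12 called lower and 1 called higher, in a fit that called 14.0% of all genes lower. *Ifi44l*, *Xaf1* and *Phf11d* were called with each library left out. *Mx1*, a dynamin-like GTPase that blocks viruses, had a TPM of 2.15, 6.22 and 8.32 in dCas9-KRAB and 0.175, 0.358 and 0 in dCas9-KRAB-En5 libraries (log2 fold change -5.45, SE 0.96, adjusted p = 0.00375 in edgeR), and its call was lost without dCas9-KRAB replicate 1 or 2 (adjusted p of at most 0.0192 in edgeR). *Ifitm3*, a membrane protein that hinders virus entry and the most abundant of the 30, had a TPM of 3791, 8602 and 7150 in dCas9-KRAB and 1879, 2288 and 2026 in dCas9-KRAB-En5 libraries. Its groups did not overlap, but the log2 fold change of -1.66 was not called (adjusted p = 0.0588 in edgeR). Others had estimates nearer to 0, such as *Ifi27* (log2 fold change -0.25, adjusted p = 0.746 in edgeR), *Adar* (-0.33, adjusted p = 0.682 in edgeR) and *Epsti1* (-0.01, adjusted p = 0.995 in edgeR), which had overlapping groups.

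Of 6 negative regulators of the signal, 0 were called lower and 1 was called higher (beside 1.52% of all genes), with a median of 0.54. *Socs3*, an inhibitor of JAK kinases induced by cytokines, had a TPM of 15.1, 65.5 and 58.8 in dCas9-KRAB and 1109, 532 and 185 in dCas9-KRAB-En5 libraries, and rose with a log2 fold change of 3.41 (SE 0.68, adjusted p = 0.00656 in edgeR). Each dCas9-KRAB-En5 library lay over the highest dCas9-KRAB library, but the call was lost when any 1 of the dCas9-KRAB libraries was left out, with an adjusted p of at most 0.0416 in edgeR. *Socs1* had a log2 fold change of -1.42 and overlapping groups (adjusted p = 0.195 in edgeR).

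**Figure D4:**
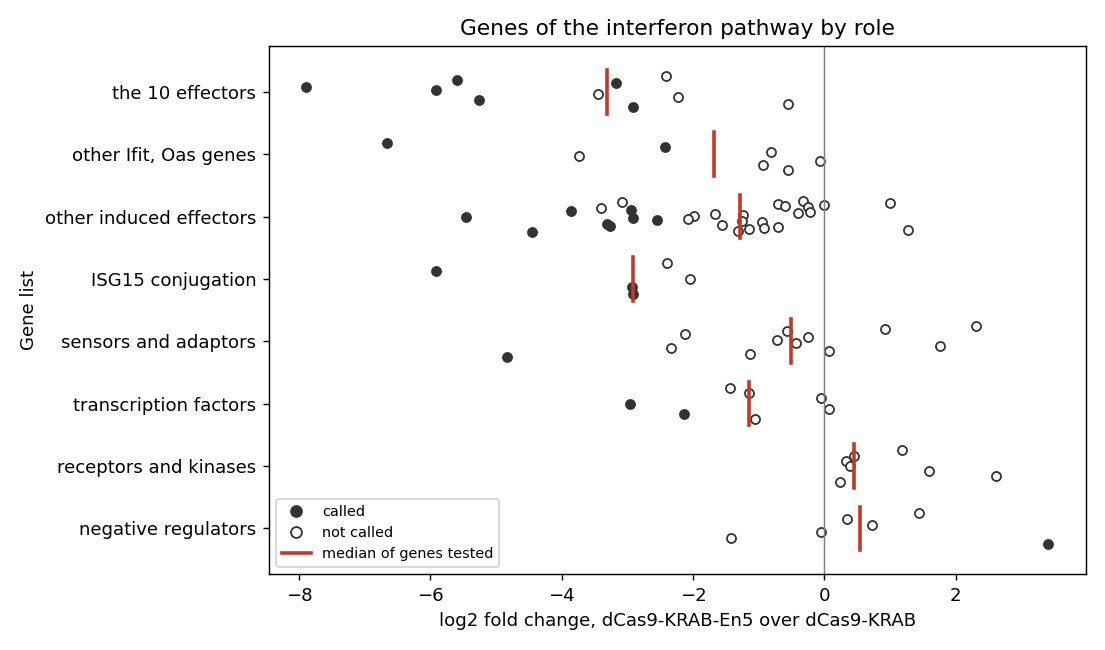
Log2 fold change in dCas9-KRAB-En5 over dCas9-KRAB cells for the tested genes of each list, with a point for each gene, filled where it was called, and a line at the median of the list. Among the 8 lists drawn, the members have the lowest median at -3.31, the receptors and kinases lie at a median of 0.44, and Ifit1bl2 of the family list is not drawn. Isg15 and Usp18 are drawn both among the members and under ISG15 conjugation.

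Several other measurements also differed between the groups, some in the direction of the members and some against it, and their part in the result was not tested. Of the 15 macrophage markers, 14 were tested and 0 were called lower. *Adgre1* alone was called higher (log2 fold change 2.68, adjusted p = 0.00706 in edgeR), beside 1.52% of all genes. Of the 14, 10 were positive and the median was 0.54. At an unadjusted p under 0.05 in edgeR 1 was lower and 4 were higher, and DESeq2 called 1 lower and 2 higher. With the replicate block 0 were called lower and 2 higher, beside 6.79% and 3.94% of all genes. Without dCas9-KRAB-En5 replicate 3 there were 2 lower and 3 higher, beside 2134 lower and 1787 higher of 15265 genes. The call of *Adgre1* held with dCas9-KRAB-En5 replicate 3 left out and with none of the other libraries left out, where the adjusted p was at most 0.0589 in edgeR. Their summed TPM was 4152, 4761 and 4659 in dCas9-KRAB and 8834, 7193 and 5569 in dCas9-KRAB-En5 libraries, that is, higher in the group where the members were lower. *Mrc1* was not listed in any library. *Fcgr1*, a macrophage marker that interferon is also known to induce, had a log2 fold change of -1.84 that was not called (adjusted p = 0.0178 in edgeR).

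Of the 8 markers of plasmacytoid dendritic cells, cells known for making interferon, 7 were listed and 5 were tested. Of those tested, 2 were called lower (*Siglech* and *Cox6a2*), beside 4.67% of all genes, and 0 higher. With the replicate block 3 were called lower, beside 6.79% of all genes. The summed TPM of these markers was 206 to 255 in dCas9-KRAB and 5.43 to 12.0 in dCas9-KRAB-En5 libraries. Most of it came from *Cox6a2*, which striated muscle expresses too. *Siglech*, the other gene of this list called lower, had a TPM of 3.68, 2.09 and 3.01 in dCas9-KRAB and 0 in each dCas9-KRAB-En5 library. Against the floor of 3 counts it was at least 72.8-fold lower, and its call was lost without dCas9-KRAB replicate 1 (adjusted p = 0.0112 in edgeR). Of the 7 lymphocyte markers, 4 were not listed and none was tested, with a summed TPM of at most 1.00 in any library.

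The muscle genes fell with the members. All 12 myotube markers were called lower (10 to 12 with 1 library left out), with a median log2 fold change of -10.56 and a summed TPM of 18710 to 21694 in dCas9-KRAB and 79.5 to 192 in dCas9-KRAB-En5 libraries. Of 7 myoblast markers, 6 were tested and 4 were called lower, beside 4.67% of all genes. Of 8 fibroblast markers, 5 were tested and 1 was called lower. With the replicate block these counts were 12 myotube, 6 myoblast and 2 fibroblast markers, beside 6.79% of all genes. The part of these differences in those of the interferon effectors was not tested.

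The genes whose pattern over the libraries was most like the mean of the members were, among the 7539 genes that averaged 10 CPM or more, *Pdlim7*, *Bcam*, *Ifit3b*, *Xaf1* and *Myl6b*. Their Pearson correlations over the 6 libraries were 0.9987, 0.9984, 0.9979, 0.9977 and 0.9976. This is a description over 6 points that fall into 2 groups, and the libraries share their depth and scaling. All 5 genes were called lower. *Pdlim7*, a PDZ and LIM protein of actin filaments, had a TPM of 60.1, 94.6 and 85.3 in dCas9-KRAB and 13.4 to 19.7 in dCas9-KRAB-En5 libraries. *Myl6b* is a myosin light chain and *Bcam* a cell adhesion protein. *Ifit3b* and *Xaf1* are interferon-induced genes.

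Some members stood higher in dCas9-KRAB-En5 replicate 3 than in the other libraries of that group, a library in which levels also shifted with gene length, and the part of that shift in their levels was tested only through the length offsets given last. Differences here are on the scale of log2(CPM + 1) after TMM scaling. Against the other libraries of its group, genes with exons of under 1500 bases in all (873 genes) were 1.21 higher in dCas9-KRAB-En5 replicate 3 on the log2 scale, and genes over 4000 bases (3870 genes) were 0.66 lower, as medians. In the other libraries these medians ran from -0.78 to 0.21 for short and from -0.18 to 0.41 for long genes. Among the members, the level in replicate 3 exceeded the mean of replicates 1 and 2 by 2.08 for *Isg15* (756 bases) and 1.47 for *Bst2* (903 bases) on the log2 scale, and it was 0.43 lower for *Ifit2* (3927 bases). *Oas1a*, with 1885 bases, had the largest excess at 3.14, and *Oasl2*, with 6374 bases, had 0.22. With offsets for gene length added to the fit after the data had been seen, 7 members were called lower, with *Bst2* in addition to the 6, and *Oas1a* was not.

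**Figure D5:**
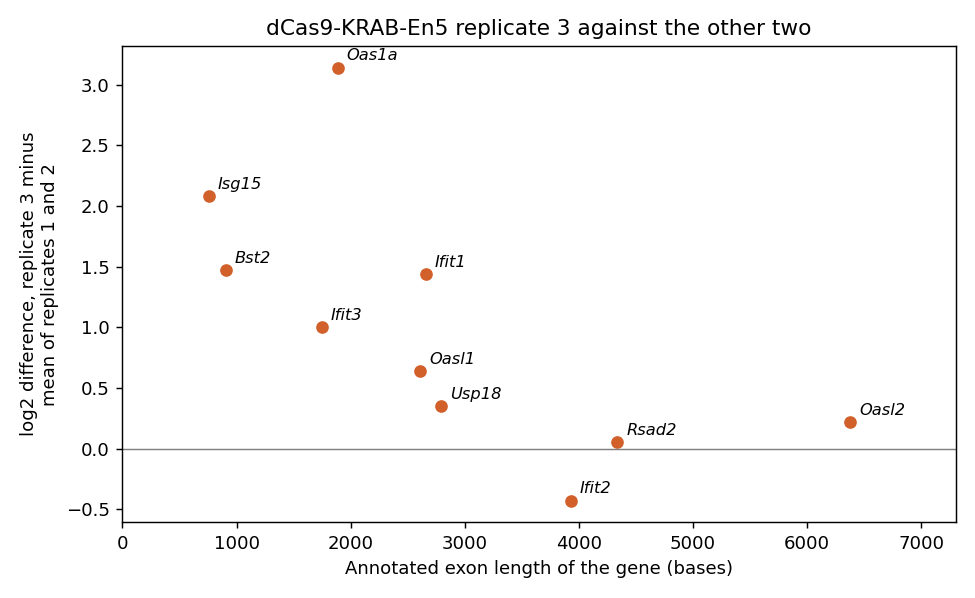
Annotated exon length of each of the 10 members in bases on the horizontal axis, against the log2 difference of dCas9-KRAB-En5 replicate 3 from the mean of replicates 1 and 2. The short genes Isg15 and Bst2 lie at 2.08 and 1.47, Oas1a lies above all others at 3.14 and Ifit2 lies below 0 at -0.43.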

How the data were processed

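There were 6 libraries of polyA RNA, 3 of each group, with groups and replicate numbers taken from the sample labels. The authors aligned the reads with HISAT2 2.2.1 to GRCm38, assigned them to genes with featureCounts. They deposited raw counts, used here as they stand. The TPM were also deposited by the authors, as counts over gene length scaled per library, and served to compare levels between genes. The annotation release and the strand setting are not given in the sources used here. A gene not listed in a library was taken as 0. Of 23231 genes, 23155 were matched to a symbol. The 10 members and all gene lists were chosen with earlier results of these data known.

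Counts were tested by the quasi-likelihood test of edgeR 4.0.16 (R 4.3.3) after TMM scaling and filterByExpr (at least 10 counts, 15 in total), with group as the only term, and p-values were adjusted by Benjamini-Hochberg. Calls required an adjusted p not above 0.01 together with a log2 fold change of 1 or more in size. Alternatives were DESeq2 1.42.0, limma 3.58.1 on TPM, other scalings, filters and cutoffs, a replicate block, gene-length offsets (added after the data were seen) and each library left out. Same-numbered replicates deviated together from their group means (correlations 0.32, 0.33 and 0.42 across genes, against -0.49 to -0.08 for other pairs). Deviations within a group cancel, so positive values for the same numbers by themselves push the other pairs down. The numbers were taken as pairs in the replicate block only. The reported edgeR test and the exact permutation test did not use them. Whether they mark a shared culture day is not stated. The edgeR script was first tested on simulated data.

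Some genes of the pathway are not reported here and were left out of the lists. The genes named are the 10 members, the other genes of their families, the genes called or of known role in the lists by role, *Myog* and the 5 genes most like the members in pattern. Genes flanking the Ifit cluster and genes overlapping a member or *Oas2* were added after the values were seen. A floor of 3 counts corresponds to 0.0405 to 0.0942 CPM, which covers counting error only. Gene positions came from GENCODE M21 on GRCm38 and promoter windows from RefSeq on GRCm38.p6.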

Additional observations from a re-analysis of the deposited data

How the results depend on the processing

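No log2 fold change of a member changed sign under any of the 10 alternatives or with any 1 of the 6 libraries left out. Of the 160 values this gave, 131 were on the same side of the cutoffs as the value reported, 20 passed where the reported value did not and 9 no longer passed. The number of members called lower was 6 as reported, beside 671 of 14378 genes. Of the same 14378 genes, it was 6 with DESeq2's size factors (beside 654) and with upper quartiles (666), and 8 with total counts only (516). It was 7 in limma with either pseudocount (482 and 643), 8 with the replicate block (976), 9 at an adjusted p of 0.05 (1380) and 7 with gene-length offsets (707). Of 23231 genes, it was 9 without the low-count filter (beside 1194) and 9 in DESeq2 (1423). With 1 library left out it ran from 3, where 2.02% of all genes were called lower, to 8, where 14.0% were. The block, which pairs the replicates by number, added *Bst2* and *Oas1a* and changed no other call of a member.

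Over all 14378 genes tested, 890 were called (671 lower and 219 higher). Of the same genes, total counts only gave 586 (516 lower, 70 higher) and the replicate block 1543 (976 lower, 567 higher). Limma on log2(TPM + 1) gave 514 (482 lower, 32 higher) and on log2(TPM + 0.1) 709 (643 lower, 66 higher). An adjusted p of 0.05 gave 2449 (1380 lower, 1069 higher). Of 23231 genes, no filter gave 2198 (1194 lower, 1004 higher) and DESeq2 2390 (1423 lower, 967 higher). With 1 library left out, of 14869 to 15265 genes tested, the total ran from 222 to 3921. The lower calls ran from 216 to 2134 and the higher calls from 6 to 1787. The highest total, lower and higher calls came without dCas9-KRAB-En5 replicate 3. The cause was not tested. The median log2 fold change of all genes lay between -0.05 and 0.18 in every setting. Low counts limit *Ifit1*, *Ifit3* and *Oasl2* in dCas9-KRAB-En5 libraries, where the size of the fold is less certain than its direction.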
